A study of Homo sapiens with 8 samples.

Results

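The ADAMTS proteases and ADAMTS-like proteins were followed in 8 RNA sequencing libraries of Panc 10.05, an established cell line from a human pancreatic ductal adenocarcinoma. The set consists of 10 named genes of the 58870 gene rows in the deposited table, 7 of them proteases (ADAMTS1, ADAMTS6, ADAMTS9, ADAMTS10, ADAMTS12, ADAMTS15 and ADAMTS17) and 3 ADAMTS-like (ADAMTSL1, ADAMTSL4 and ADAMTSL5). Rows were taken where the symbol in the table equalled a listed name. The family was selected on the log2 fold change of ELAPOR1 against control in these libraries, where ADAMTSL4 and ADAMTS12 had been seen to fall strongly, so differences of the 10 genes are given as a description without p-values. Of the 8 libraries, 4 came from Panc 10.05 control cells and 4 from Panc 10.05 cells labelled as ELAPOR1 overexpression. ELAPOR1 encodes a transmembrane protein of endosomes and lysosomes. The labels name no vector, clone, passage or date, and do not say whether the replicates were separate cultures, so the spread between them, which is all that p-values measure here, may be technical. In bulk RNA, fewer cells expressing a gene and less RNA per cell cannot be told apart.

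ADAMTS proteases are secreted zinc metalloproteases that carry thrombospondin type 1 repeats, through which they attach to the extracellular matrix. They are made as inactive proforms that proprotein convertases such as furin cut, and different members cleave hyaluronan-binding proteoglycans, procollagens, von Willebrand factor or cartilage oligomeric matrix protein. ADAMTS-like proteins share the repeats and lack the protease domain, and several of them bind fibrillin microfibrils. In pancreatic tumours much of the matrix is laid down by fibroblasts, which a cell line grown alone does not contain.

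Sequence before the RefSeq start is shown for the 4 members whose level changed between the groups. The printed run ends 39 bases before that start for ADAMTSL4, 202 for ADAMTS12, 30 for ADAMTS17 and 0 for ADAMTS6. Each run is from RefSeq on GRCh38.p14, 5′ to 3′ on the strand of the gene, and stops where the first exon of GENCODE release 29 begins. The windows are chr1:150549158-150549368 on the plus strand for ADAMTSL4, and on the minus strand chr5:33892193-33892240 for ADAMTS12, chr5:65481921-65482170 for ADAMTS6 and chr15:100342006-100342225 for ADAMTS17. Capitals mark matches, on either strand, to TATAAA, to GGGCGG (the GC box), to TGANTCA (an AP-1 motif) or to CATTCC (a TEAD motif).
ADAMTSL4: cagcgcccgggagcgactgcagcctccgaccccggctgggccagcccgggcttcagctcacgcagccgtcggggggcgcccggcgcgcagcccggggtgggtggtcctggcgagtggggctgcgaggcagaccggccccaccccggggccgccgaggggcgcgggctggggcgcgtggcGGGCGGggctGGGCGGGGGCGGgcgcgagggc
ADAMTS12: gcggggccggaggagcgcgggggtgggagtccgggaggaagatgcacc
ADAMTS6: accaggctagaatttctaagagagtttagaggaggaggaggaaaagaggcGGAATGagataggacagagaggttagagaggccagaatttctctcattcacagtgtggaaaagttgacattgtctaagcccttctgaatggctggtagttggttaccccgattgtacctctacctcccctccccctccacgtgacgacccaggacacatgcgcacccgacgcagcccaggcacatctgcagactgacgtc
ADAMTS17: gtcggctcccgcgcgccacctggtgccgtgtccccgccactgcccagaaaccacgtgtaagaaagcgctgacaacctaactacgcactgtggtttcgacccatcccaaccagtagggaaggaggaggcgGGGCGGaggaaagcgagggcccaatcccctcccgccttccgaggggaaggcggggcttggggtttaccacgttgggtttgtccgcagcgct

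The 4 motifs were searched in the 250 bases before each RefSeq start, and 7 of the 10 members had such a window. GGGCGG had 4 matches before ADAMTSL4 (3 of them in the printed run), 1 before ADAMTS12, 1 before ADAMTS17 and none before ADAMTS6, against 42.6% of 35116 promoter windows with at least 1. TGANTCA matched once before ADAMTS12, and 6.57% of all windows hold it. CATTCC matched once before ADAMTS12 and once before ADAMTS6 (11.9% of all windows). The matches to these motifs before ADAMTS12 all lie in sequence that GENCODE counts as exon, which is not printed. TATAAA matched before none of these 4 (10.7% of all windows). GC content of the printed runs was 84.4% for ADAMTSL4 (211 bases), 77.1% for ADAMTS12 (48 bases), 65% for ADAMTS17 (220 bases) and 52.4% for ADAMTS6 (250 bases). The median over all windows was 58%. That median is of full windows of 250 bases, so the shorter runs are not strictly comparable with it. GGGCGG was thus matched before both members that fell and before 1 of the 2 that rose. It was also matched 3 times before ADAMTSL5, which was not called. The windows before ADAMTS10, which had 0 counts in every library, held 5 and 0 matches, and that before ADAMTSL1 held 0. Such matches are a description of letters in these windows.

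Libraries held 16558600 to 18128757 counts in control and 13765509 to 17258166 in ELAPOR1. The overexpressed gene was read first. ELAPOR1 (listed under its older name KIAA1324) had 1, 1, 4 and 4 counts in control and 7006, 6422, 5910 and 7368 counts in ELAPOR1 libraries, so the 8 libraries matched their labels. Epithelial markers were high, with KRT8, KRT18, KRT19, EPCAM and CDH1 summing to 10890 to 12040 CPM (counts relative to library size, scaled by the TMM method) in control and to 9787 to 10110 CPM in ELAPOR1 libraries. Of 9 fibroblast markers DCN, LUM, COL1A2 and THY1 had 0 counts in every library, and the list summed to 3.13 to 4.44 CPM in control and 3.0 to 3.25 CPM in ELAPOR1, nearly all of it COL1A1. Of 5 endothelial markers CDH5 had 0 counts, and the list, most of it VWF, summed to 1.65 to 2.13 CPM in control and 0.576 to 0.998 CPM in ELAPOR1. The 5 leukocyte markers summed to 6.37 to 8.57 and 8.04 to 8.93 CPM, mostly CSF1R, with CD3E at 0. Of 5 acinar and endocrine markers PRSS1, CPA1, CELA3A and INS had 0 counts. The epithelial sum, most of it KRT8 and KRT18, and the endothelial sum were lower in each ELAPOR1 library than in any control library. Among the 5 epithelial markers KRT8 and KRT18 fell (log2 fold changes -0.16 and -0.36), KRT19 and CDH1 rose (0.25 and 0.11), and EPCAM was at -0.025 and was not called. The part of these markers in the results was not tested.

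Of the 10 members 5 had enough counts to be tested, which asks for about 10 counts in at least 4 libraries. These were ADAMTSL4, ADAMTSL5, ADAMTS12, ADAMTS6 and ADAMTS17. Between groups 4 of these 5 passed the threshold (edgeR adjusted p-value under 0.05), ADAMTS6 and ADAMTS17 higher and ADAMTSL4 and ADAMTS12 lower in ELAPOR1. Across the 13860 tested genes 44.7% passed, 22.6% higher and 22.1% lower. Since the members were listed with these differences known, nothing is read from their share. Past a log2 fold change of 1 there were 2 called members in each direction, beside 1.17% of all tested genes called and higher by that much and 1.1% called and lower. For those 4 members every library of a group stood on one side of the other group, as for 39.2% of all tested genes.

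ADAMTSL4 was the member with the most counts in control. It encodes a secreted glycoprotein that binds fibrillin-1 and promotes microfibril formation, and inherited loss of it displaces the lens of the eye. The gene (ENSG00000143382.14) lies on chromosome 1 from 150549369 to 150560937 on the plus strand in GENCODE release 29 (GRCh38). Control libraries 1 to 4 had 58.4, 57.9, 54.2 and 64.9 CPM, and ELAPOR1 libraries 1 to 4 had 20.4, 19.3, 19.6 and 20.1 CPM. Each ELAPOR1 library was below each control library, and the ELAPOR1 libraries lay close together. The means were 58.9 ± 4.45 and 19.8 ± 0.496 CPM (SD, n = 4 each), and the log2 fold change was -1.57 (SE 0.0611), a 2.96-fold fall. The annotation places exons of ADAMTSL4-AS1 and AL356356.1 on the other strand over those of ADAMTSL4. The counts of these antisense rows reached at most 9 for ADAMTSL4-AS1 and 5 for AL356356.1 in any library, beside 272 to 1065 counts for ADAMTSL4, and the use of strand in counting was not given in the sources used here.

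ADAMTS12, a protease that cleaves cartilage oligomeric matrix protein, was the member protease with the most counts in control. The gene (ENSG00000151388.11) spans chromosome 5 from 33523535 to 33892192 on the minus strand, and no exon of another gene overlaps its exons. It had 15.1, 15.1, 11.4 and 12.4 CPM in control libraries 1 to 4, and 3.81, 5.19, 4.25 and 5.25 CPM in ELAPOR1 libraries 1 to 4. The lowest control library was more than the highest ELAPOR1 library, and control libraries fell into a higher and a lower pair. The log2 fold change was -1.54 (SE 0.124), from 13.5 ± 1.91 to 4.62 ± 0.712 CPM (SD, n = 4 each).

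ADAMTS6 changed the other way. It is a protease linked to heart development and to the handling of fibrillin microfibrils and cell junctions, and is the closest relative of ADAMTS10 in the family. The gene (ENSG00000049192.15) lies on the minus strand of chromosome 5, from 65148736 to 65481920, far from ADAMTS12 on the same chromosome. Control libraries 1 to 4 held 7.71, 6.20, 6.29 and 6.04 CPM, and ELAPOR1 libraries 1 to 4 held 14.4, 11.8, 15.6 and 12.8 CPM. Each ELAPOR1 library was above the highest control library, which was replicate 1. The means were 6.56 ± 0.773 and 13.7 ± 1.70 CPM (SD, n = 4 each), which is 2.07-fold, or 1.05 on the log2 scale with an SE of 0.110.

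ADAMTS17, in which inherited mutations cause a Weill-Marchesani-like syndrome of short stature and eye defects, rose from a few counts. The gene (ENSG00000140470.14) spans chromosome 15 from 99971589 to 100342005 on the minus strand. Control libraries 1 to 4 had 3, 3, 8 and 4 counts and ELAPOR1 libraries 1 to 4 had 18, 17, 19 and 18 counts. The groups did not overlap, and the ELAPOR1 libraries were nearly alike. In CPM the means were 0.267 ± 0.146 and 1.16 ± 0.144 (SD, n = 4 each), and the log2 fold change was 2.09 (SE 0.412). ADAMTS17 was tested through its ELAPOR1 libraries, since no control library reached 10 counts, and it had to differ to be among the tested genes. The antisense row AC084855.1, whose exons overlap it, had at most 2 counts in a library.

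ADAMTSL5, a small ADAMTS-like protein that binds fibrillin and heparin, differed little. The gene (ENSG00000185761.11) lies on chromosome 19 from 1505018 to 1513604 on the minus strand. It had 14.9, 14.5, 14.8 and 16.6 CPM in control libraries 1 to 4 and 14.7, 12.8, 13.0 and 12.9 CPM in ELAPOR1 libraries 1 to 4. ELAPOR1 replicate 1 lay within the control range and the other ELAPOR1 libraries were below it. The log2 fold change was -0.18 (SE 0.0854) and was not called, in the reported fit or in 15 of 16 alternatives. It passed the threshold, at -0.24, only when ELAPOR1 replicate 1, the library within the control range, was left out.

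**Figure D1:**
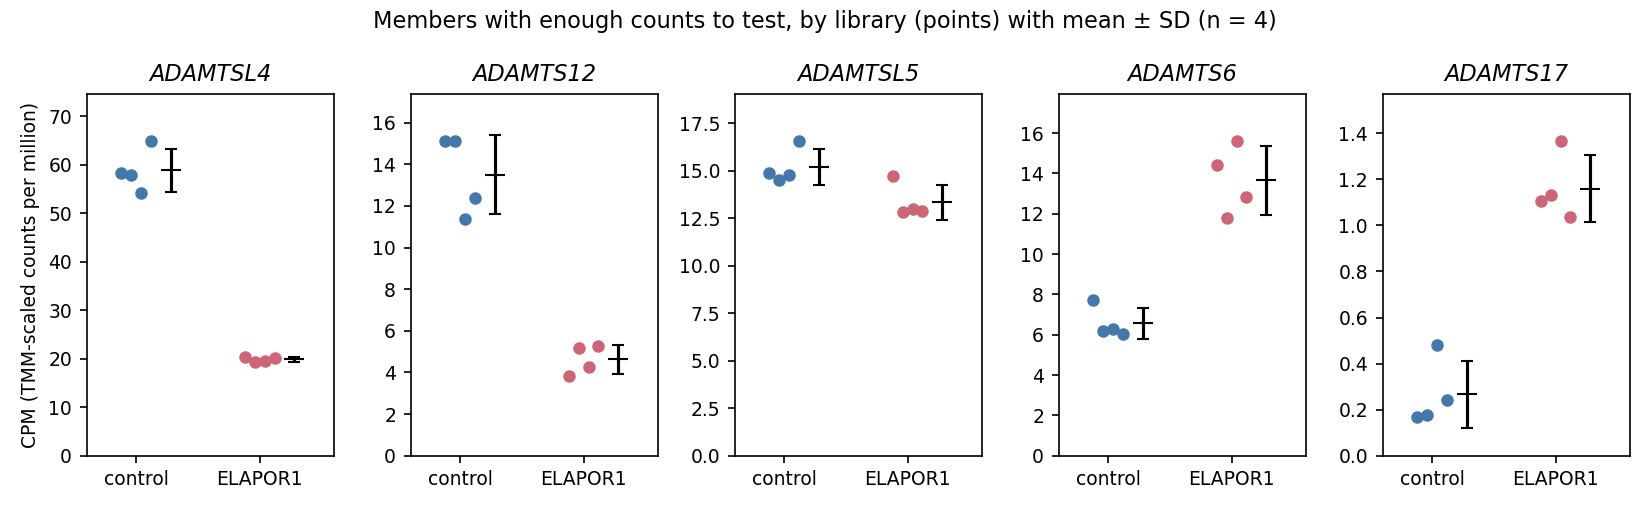
CPM (y axis, from 0, a scale of its own in each panel) of the 5 tested members in control and ELAPOR1 libraries (x axis); points are libraries and bars the mean ± SD (n = 4). ADAMTSL4 (58.9 to 19.8 CPM) and ADAMTS12 (13.5 to 4.62 CPM) are lower, ADAMTS6 (6.56 to 13.7 CPM) and ADAMTS17 (0.267 to 1.16 CPM) higher in ELAPOR1, and the groups of ADAMTSL5 overlap.

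The other 5 members had too few counts to test. ADAMTS15 and ADAMTS9, both proteases of hyaluronan-binding proteoglycans such as versican, were detected at a low level. ADAMTS15 had 8, 4, 14 and 12 counts in control and 4, 4, 5 and 4 in ELAPOR1 libraries, and the groups overlapped. ADAMTS9 had 7, 0, 8 and 9 counts in control and 10, 1, 8 and 9 in ELAPOR1 libraries, and the groups overlapped. ADAMTSL1 (punctin) reached 3 counts at most. ADAMTS1, a proteoglycan-cleaving protease that inflammatory signals induce in many tissues, had 1 count in 1 library. ADAMTS10, a microfibril-linked protease, had 0 counts in every library. In these libraries 3 counts correspond to 0.166 to 0.216 CPM, so a level up to that, and any difference below it, was not detectable for ADAMTS10, ADAMTS1 and ADAMTSL1. Such limits cover counting error only.

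Levels of different genes were compared per kilobase of annotated exon, as RPKM computed here from the CPM. In control the order was ADAMTSL4 at 9.15 ± 0.69 RPKM, ADAMTSL5 at 4.19 ± 0.26, ADAMTS12 at 1.38 ± 0.20 and ADAMTS6 at 0.765 ± 0.09 (SD, n = 4). The ranges of these 4 over the control libraries did not overlap. ADAMTS15 (0.0416 to 0.148 RPKM), ADAMTS9 (0 to 0.0514 RPKM) and ADAMTS17 (0.0202 to 0.0582 RPKM) followed and overlapped one another. In ELAPOR1 libraries the order was ADAMTSL5 at 3.68 ± 0.25, ADAMTSL4 at 3.09 ± 0.077, ADAMTS6 at 1.59 ± 0.20, ADAMTS12 at 0.473 ± 0.073 and ADAMTS17 at 0.141 ± 0.017 RPKM (SD, n = 4), again with ranges that did not overlap. Per kilobase of exon, both leading pairs had changed places. ADAMTSL4 was above ADAMTSL5 in 4 of 4 control libraries, by 2.07 to 2.25 times, and below it in 4 of 4 ELAPOR1 libraries, at 0.780 to 0.882 of its level. ADAMTS12 was above ADAMTS6 in 4 of 4 control libraries, by 1.59 to 2.14 times, and below it in 4 of 4 ELAPOR1 libraries, at 0.231 to 0.386 of its level. Exon length summed over annotated transcripts overstates the length of the transcripts in use, which can shift the order between genes. The swap of ADAMTSL4 and ADAMTSL5 rests on that length. In CPM ADAMTSL4 stayed above ADAMTSL5 in the ELAPOR1 libraries (19.3 to 20.4 against 12.8 to 14.7 CPM). The swap of ADAMTS12 and ADAMTS6 was also seen in CPM.

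Together the 10 members held 88.6 to 101.4 CPM in control and 50.6 to 55.5 CPM in ELAPOR1 libraries. ADAMTSL4 made up 61.7 ± 1.64% of their counts in control and 37.2 ± 1.16% in ELAPOR1 (SD, n = 4 each). The share of ADAMTS6 was 6.89 ± 0.841% in control and 25.5 ± 2.30% in ELAPOR1 libraries. ADAMTS12 made up 14.2 ± 1.93% and 8.70 ± 1.66%. ADAMTSL5, whose CPM differed little, took 15.9 ± 0.686% in control and 25.0 ± 1.27% in ELAPOR1 libraries. Shares of counts favour long transcripts.

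**Figure D2:**
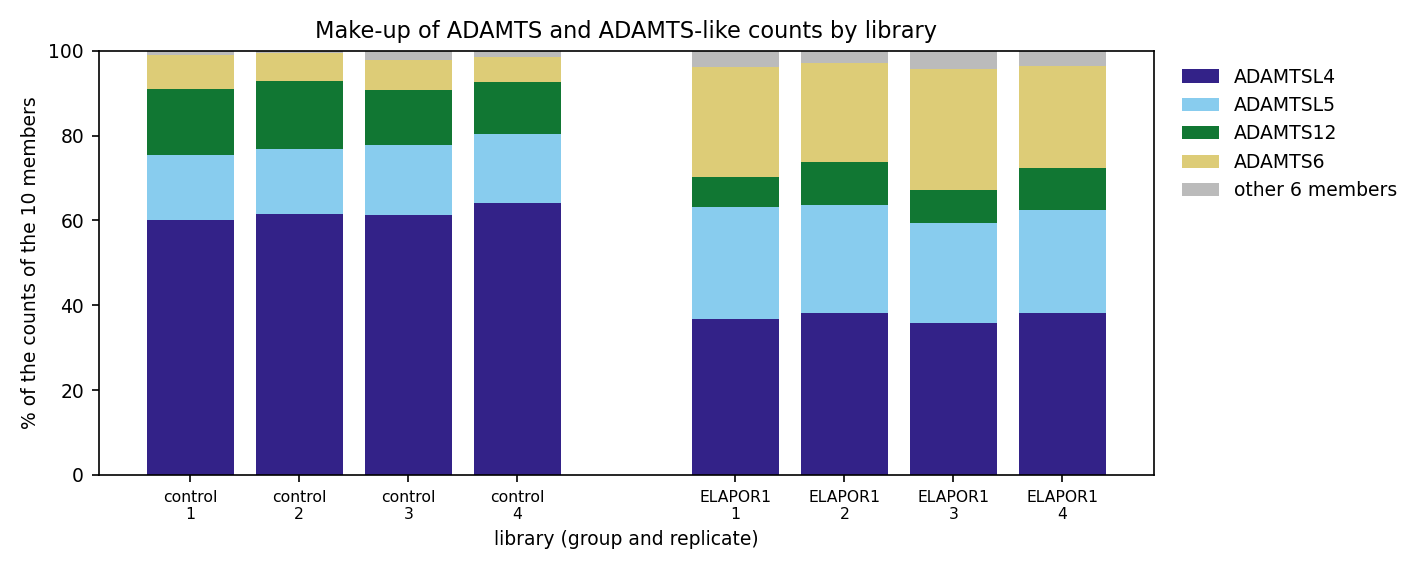
Percent of the counts of the 10 members (y axis) taken by ADAMTSL4, ADAMTSL5, ADAMTS12, ADAMTS6 and the other 6 members together in each library (x axis: group and replicate). ADAMTSL4 takes 60.1 to 64.0% in control and 35.7 to 38.2% in ELAPOR1 libraries, and ADAMTS6 takes 5.95 to 7.94% and 23.3 to 28.5%.

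Of the 16 other genes of the family, which include THSD4 (ADAMTSL6) and papilin, 7 had 0 counts in every library and 4 could be tested. Of these 4, 3 fell in ELAPOR1 and none rose, where 22.1% of all tested genes fell. Their median log2 fold change was -0.54, beside 0.001 over all tested genes. This list and the lists below were chosen with earlier results of these data known. Nothing is therefore read from their shares or medians. Adjusted p-values of genes named from these lists are likewise a description. Many genes named from the lists below were the largest called changes, picked on these same values. ADAMTS13, the protease that trims von Willebrand factor multimers, had 29, 30, 30 and 24 counts in control libraries and 7, 9, 4 and 11 in ELAPOR1 libraries, with no overlap. The mean fell from 1.66 ± 0.156 to 0.488 ± 0.160 CPM (SD over 4 libraries), a log2 fold change of -1.73 with an SE of 0.330. ADAMTS13 was tested through its control libraries, since 3 of 4 ELAPOR1 libraries had fewer than 10 counts. Its value is therefore given as a description without a p-value, though it is among the 3 that fell and enters the median. THSD4, which binds fibrillin-1 and promotes its assembly, had 22.3, 23.7, 20.2 and 21.6 CPM in control and 15.8, 17.0, 15.4 and 13.5 CPM in ELAPOR1 libraries. It fell by 0.51 on the log2 scale (with an SE of 0.0801, adjusted p = 2.6e-06 by edgeR), and each ELAPOR1 library was below each control library. PAPLN (papilin), a matrix protein that resembles the ADAMTS-like proteins, fell from 9.94 ± 1.38 to 6.72 ± 0.622 CPM (log2 fold change -0.56 with an SE of 0.118, adjusted p = 1.8e-04 by edgeR). ADAMTS16 had 3.73 ± 0.691 CPM in control and 3.61 ± 0.294 CPM in ELAPOR1 (SD over 4 libraries; log2 fold change -0.041 with an SE of 0.175, adjusted p = 0.87 by edgeR), with overlapping groups. The procollagen proteases ADAMTS2, ADAMTS3 and ADAMTS14 and the aggrecan-cleaving ADAMTS4 and ADAMTS5 had at most 4 counts in any library. Of the antisense genes named after the family 4 were in the table, 3 of them at 0 counts, and none was tested.

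Substrates were next. Of 26 genes for known substrates and partners of the proteases 7 could be tested, and 8 had 0 counts. Proteoglycan substrates of the matrix and COMP were at or near 0 here. DCN, BGN, LUM and COMP had 0 counts in every library, ACAN at most 1 and VCAN (versican) at most 5. Other matrix genes of the list were expressed. COL1A1 had 3.35 CPM in control and 2.93 CPM in ELAPOR1 and was not called. FN1, at 94.7 and 107 CPM, was among those that rose. Of the 7 tested genes 5 rose and 1 fell, beside 22.6% of all tested genes higher and 22.1% lower. Their median log2 fold change was 0.35. As this list too was chosen with earlier results known, nothing is read from that share. THBS1 (thrombospondin 1), which ADAMTS1 cleaves, rose from 128 ± 6.30 to 229 ± 5.35 CPM (log2 fold change 0.84 with an SE of 0.0352, adjusted p = 1.1e-19 by edgeR). TFPI2, a Kunitz-type serine protease inhibitor of the matrix, rose from 40.9 ± 2.33 to 58.8 ± 1.18 CPM (log2 fold change 0.52, adjusted p = 1.8e-10 by edgeR). VWF (von Willebrand factor), the substrate of ADAMTS13 and an endothelial marker, was low in both groups, with 28, 28, 27 and 32 counts in control and 12, 13, 8 and 15 counts in ELAPOR1 libraries. It fell by 1.14 on the log2 scale (with an SE of 0.295), and the groups did not overlap. VWF was tested through its control libraries, since ELAPOR1 replicate 3 had only 8 counts. Its value is therefore given as a description without a p-value, though it is the 1 that fell and enters the median.

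Microfibril genes bear on the ADAMTS-like members, whose partner is fibrillin. Of 14 such genes 6 were tested, 4 fell and none rose (22.1% of all tested genes fell), and the median log2 fold change was -0.24. FBN1 (fibrillin-1) itself had 36, 33, 16 and 22 counts in control and 26, 18, 26 and 45 counts in ELAPOR1 libraries, with overlapping groups (log2 fold change 0.22 with an SE of 0.283, adjusted p = 0.56 by edgeR). EFEMP2 (fibulin-4), which helps to assemble elastic fibres, fell from 3.13 ± 0.337 to 1.66 ± 0.309 CPM (log2 fold change -0.91, adjusted p = 7.6e-04 by edgeR). Its exons overlap MUS81, which had 598 to 939 counts per library. LTBP3 and LTBP4, latent TGF-beta binding proteins of the fibrillin family, fell by 0.45 and 0.20 on the log2 scale (edgeR adjusted p = 2.2e-09 and 0.0024). ELN (elastin) had 0 counts in every library.

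Among 7 inhibitors and clearance receptors 4 were tested, of which 3 fell and none rose (22.1% of all tested genes fell), and the median log2 fold change was -0.20. TIMP3, the tissue inhibitor with the strongest action on ADAMTS proteases, had 0 counts in every library. TIMP2, a broad metalloprotease inhibitor, fell from 391 ± 9.16 to 294 ± 8.38 CPM (SD, n = 4 each; log2 fold change -0.41, adjusted p = 2.1e-13 by edgeR). LRP1, the endocytic receptor that clears several ADAMTS proteases, fell by 0.26 on the log2 scale (edgeR adjusted p = 0.0038), and its exons overlap STAT6. TIMP1 fell by 0.14 (edgeR adjusted p = 0.0051) with overlapping groups.

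Of 8 genes for maturation of the proteins, convertases that remove the propeptide and enzymes that attach sugars to thrombospondin repeats, 7 were tested, 1 rose and 1 fell. These are 28.6% of the tested genes of the list, below the 44.7% over all tested genes, and the median log2 fold change was 0.037. PCSK7, a convertase, rose from 36.8 ± 1.74 to 52.5 ± 2.23 CPM (log2 fold change 0.52, adjusted p = 7.5e-10 by edgeR), and its annotated exons overlap TAGLN. POFUT2, which adds O-fucose to the repeats and is needed for secretion of several ADAMTS proteins, fell from 18.2 ± 1.62 to 13.3 ± 0.549 CPM (log2 fold change -0.45, adjusted p = 3.3e-05 by edgeR). B3GLCT, which extends that fucose with glucose, had a log2 fold change of 0.051 (with an SE of 0.0886, adjusted p = 0.67 by edgeR), and FURIN one of -0.041 (with an SE of 0.0332, adjusted p = 0.34 by edgeR).

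For comparison, 12 of 30 genes of the related ADAM and matrix metalloprotease families were tested, of which 1 rose and 4 fell. These are 41.7% of the tested genes of the list, near the 44.7% over all tested genes, and the median log2 fold change was -0.11. MMP14, a membrane-anchored collagenase, fell from 32, 34, 28 and 37 counts to 8, 11, 6 and 7 counts (log2 fold change -1.90 with an SE of 0.316). MMP14 was tested through its control libraries, since 3 of 4 ELAPOR1 libraries had fewer than 10 counts. Its value is therefore given as a description without a p-value, though it is among the 4 that fell. MMP24 rose from 2.18 ± 0.388 to 5.97 ± 0.449 CPM (log2 fold change 1.45 with an SE of 0.170, adjusted p = 1.3e-08 by edgeR), though its exons overlap MMP24OS, which had 814 to 1186 counts per library. MMP15 fell by 0.46 on the log2 scale (edgeR adjusted p = 4.2e-07). No difference between these families and the ADAMTS family was tested.

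**Figure D3:**
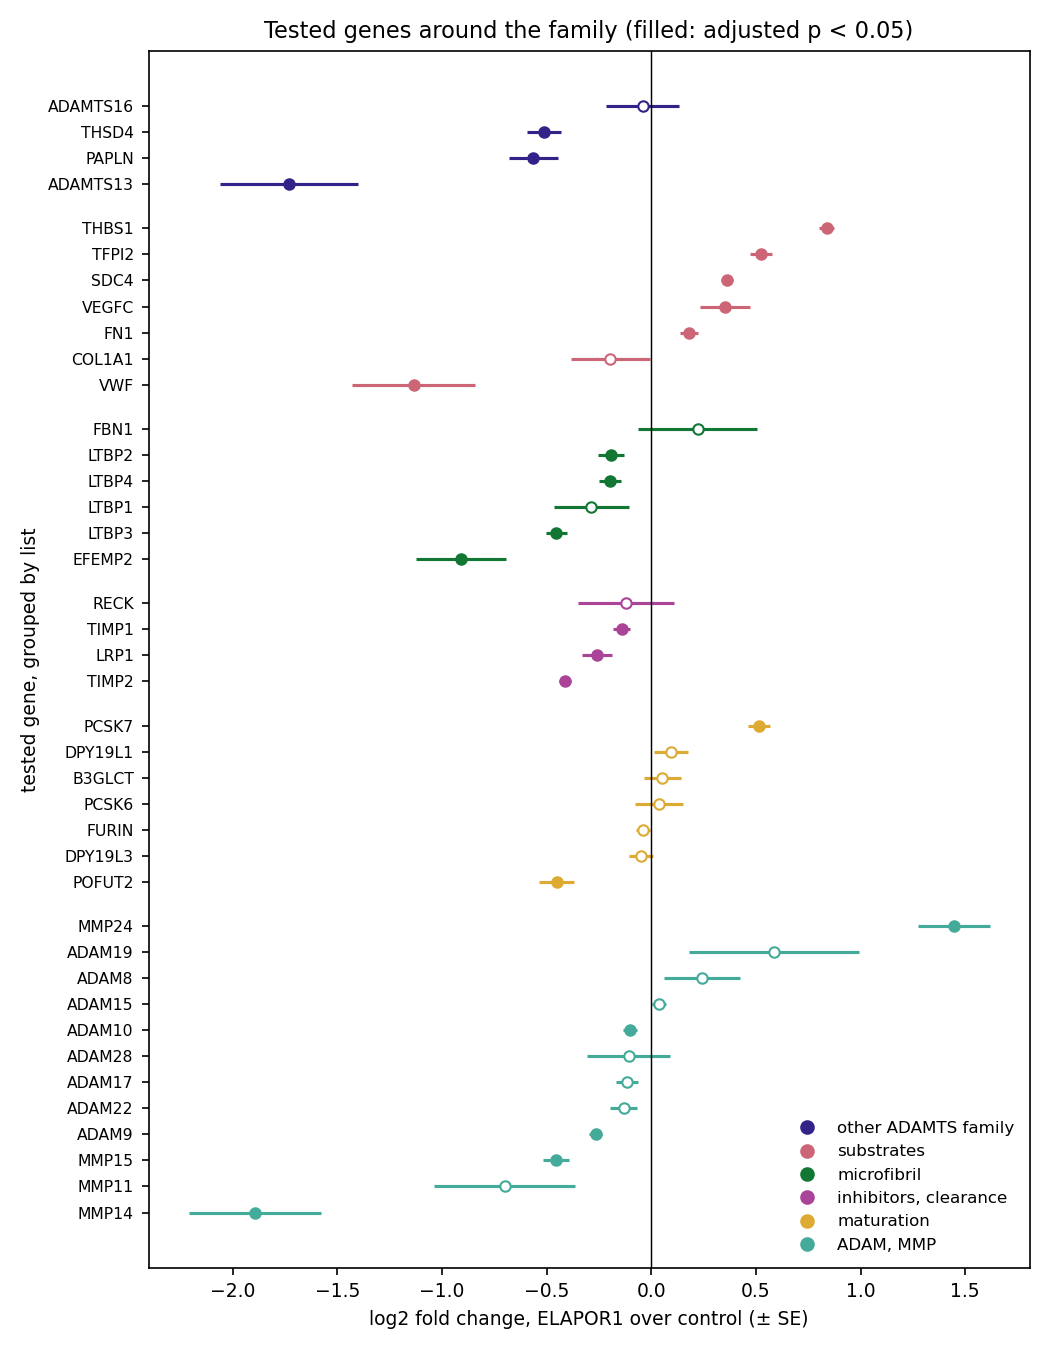
Log2 fold change of ELAPOR1 over control with its SE (x axis) for each tested gene of the other ADAMTS family members and of the lists of substrates, microfibril genes, inhibitors and clearance receptors, maturation enzymes and ADAM and MMP proteases (y axis). Filled points passed an edgeR adjusted p-value of 0.05; ADAMTS13 (-1.73) and MMP14 (-1.90) lie farthest to the left, MMP24 (1.45) and THBS1 (0.84) farthest to the right.

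The genes around each changed member are shown to place it in its region, a view chosen after the values were seen. The 10 tested genes nearest to ADAMTSL4, 5 on each side and within 254 kb, had log2 fold changes from -0.29 to 0.20 with a median of 0.051, and MCL1, the next gene, had 0.10. Those nearest to ADAMTS12 had a median of 0.025 and reached -1.04 at C1QTNF3. Around ADAMTS6 the median was 0.028 and the range -0.40 to 0.20. Around ADAMTS17 the range was -1.09 to 0.74, with a median of -0.073. ADAMTSL4, ADAMTS12, ADAMTS6 and ADAMTS17 each lay outside the range of its 10 neighbours.

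**Figure D4:**
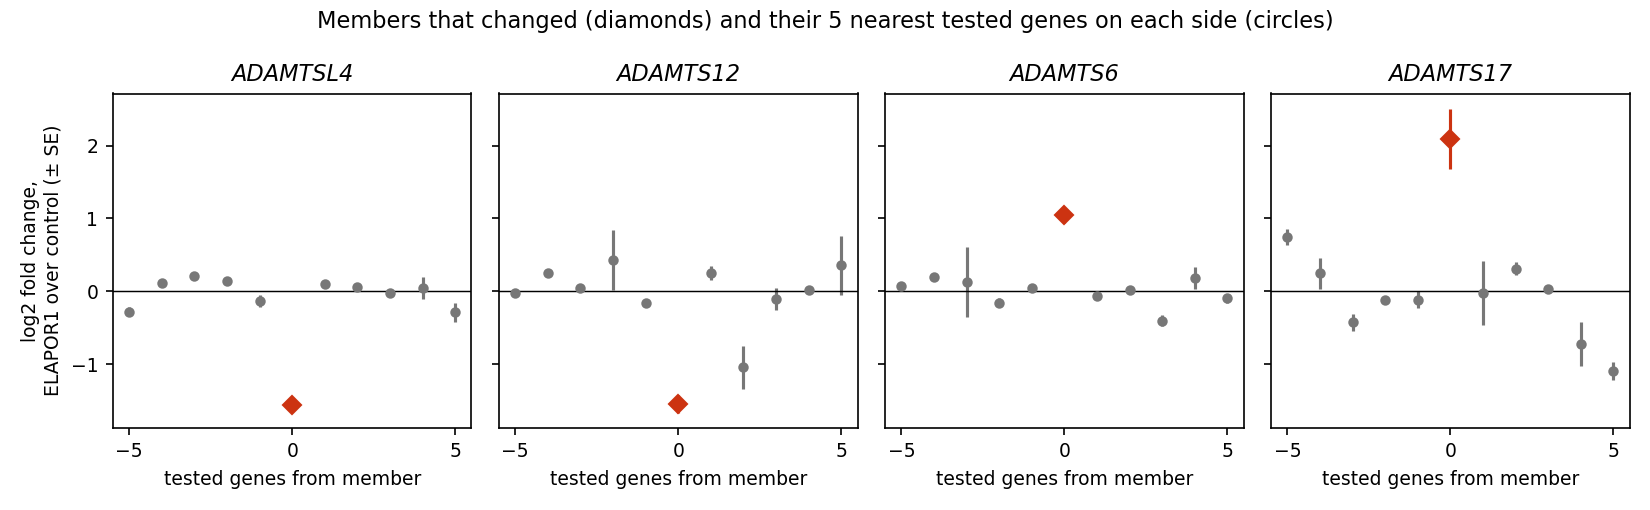
Log2 fold change of ELAPOR1 over control with its SE (y axis) for ADAMTSL4, ADAMTS12, ADAMTS6 and ADAMTS17 (diamonds) and their 5 nearest tested genes on each side, in genome order (x axis, circles). The diamonds at -1.57, -1.54, 1.05 and 2.09 lie beyond all circles of their panel, which the choice of changed members largely fixed.

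The genes whose level over the 8 libraries was most like that of ADAMTSL4 were found by distance between profiles of log2(CPM + 0.5), each centred on its mean, among 10702 genes that averaged 5 CPM or more. They were LCN2 (distance 0.336), ATG9B (0.525), ADAMTS12 (0.556), CCNG2 (0.565) and IL7R (0.571). Exons of ATG9B overlap NOS3, which had 183 to 198 counts in control and 96 to 109 in ELAPOR1 libraries. LCN2 encodes lipocalin 2, a secreted protein that binds iron-carrying siderophores, and went from 63.7 ± 3.89 to 24.6 ± 1.02 CPM (SD, n = 4 each). The genes nearest to ADAMTS12 were CCNG2 (0.456), which encodes cyclin G2, then ADAMTSL4 (0.556) and LCN2 (0.561). CCNG2 had 40.0 ± 3.50 CPM in control and 16.1 ± 1.94 CPM in ELAPOR1 libraries. ADAMTSL4 and ADAMTS12 were thus among each other's nearest profiles, which hold the difference between the groups that both were noted for.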

How the data were processed

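RNA of 8 Panc 10.05 libraries was sequenced on an Illumina NextSeq, per the labels' protocols. The authors deposited 1 table of expected counts per gene as RSEM estimates them, not scaled between libraries. The submitters' processing notes name cutadapt, STAR, RSEM, DESeq2 and the build hg38. Annotation release and strand use were not given in the sources used here. Of the nonzero values 15% were not whole. Counts were rounded and fitted with edgeR 4.0.16 in R 4.3.3 (filterByExpr, TMM, robust quasi-likelihood test, two-sided, no covariate), with Benjamini-Hochberg adjustment over 13860 genes. The SE is the log2 fold change divided by the square root of F. The procedure was tested on simulated counts. Coordinates and exon lengths are from GENCODE release 29 (GRCh38), in which 58597 of 58870 identifiers were found without version. The members and gene lists were chosen with earlier results of these data known. Named genes were the members, tested family genes, the 3 largest called changes of each list, 6 genes fixed by role (VCAN, FBN1, TIMP3, FURIN, POFUT2 and B3GLCT), and the nearest profiles; other genes were named after their values were seen. Alternatives were DESeq2 size factors, total count and upper-quartile scaling, the DESeq2 1.42.0 Wald test, limma-voom (limma 3.58.1), other filters, a replicate block and leaving out each library. Plots used matplotlib 3.10.9.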

Additional observations from a re-analysis of the deposited data

Results flagged for a closer look

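A library was picked out where it lay far from the other 3 of its group relative to the whole range of that group. Of 64 groups of 4 examined (library totals and the CPM of the named genes) 4 were picked out, and chance gives about 3.2. ADAMTS6 stood at 7.71 CPM in control replicate 1, against 6.04 to 6.29 CPM in the remaining 3. ADAMTSL5 was at 16.6 CPM in control replicate 4, against 14.5 to 14.9 CPM in the others, and at 14.7 CPM in ELAPOR1 replicate 1, against 12.8 to 13.0 CPM. CCNG2 was at 18.9 CPM in ELAPOR1 replicate 4, against 14.8 to 15.5 CPM.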

How the results depend on the processing

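All 16 alternatives kept the number of called members between 3 and 5 (4 in the reported fit) and that of all genes between 5557 and 6316. With at least 10 counts in every library ADAMTS17, ADAMTS13, VWF and MMP14 could not be tested. Log2 fold changes ran from -1.60 to -1.52 for ADAMTSL4, -1.62 to -1.46 for ADAMTS12, 0.99 to 1.14 for ADAMTS6 and 1.91 to 2.52 for ADAMTS17. Values that changed sign were near 0: ADAMTS16 ran from -0.12 to 0.054 with 1 library left out, and was at 0.020, 0.054 and 0.0051 without control replicate 2, control replicate 4 and ELAPOR1 replicate 3, and FBN1 (-0.013 to 0.37) was at -0.013 and B3GLCT at -0.031 without ELAPOR1 replicate 4. The cause was not tested. No scaling moved the median of all genes by more than 0.1. Libraries with the same replicate number did not deviate together (correlations across genes -0.027 to 0.025). With the replicate number as a block 5926 genes and 4 members were called, and no named gene changed its call. Depth limits ADAMTS1, ADAMTS9, ADAMTS10, ADAMTS15 and ADAMTSL1.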
